A study of Homo sapiens with 18 samples.

Results

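Accessible chromatin was examined at the promoters of 47 genes of DNA replication and mitosis in the head and neck squamous cell carcinoma lines SCC1, SCC6 and SCC25 by ATAC-seq. ATAC-seq cuts open chromatin with a transposase, and the reads counted over a region measure how accessible that region is. The genes were listed with earlier results of these data known. Regions of the deposited table counted as members within 1 kb of an annotated protein-coding transcript start of a listed gene (GRCh37/hg19). This assignment of regions to genes made no use of the measured signal. This gave 56 regions, at least 1 for each of the 47 genes, out of 15528 promoter regions and 115087 regions in all. Each line had received the anti-EGFR antibody cetuximab at 100 nM or PBS, the vehicle, each day for 5 days in DMEM/F12 medium with serum, and the labels name no other agent in any group. There were 3 libraries in each of the 6 groups, except 2 in the SCC1 PBS group (replicates 1 and 3, replicate 2 being not analysed here). The labels do not say whether libraries of a group came from separate cultures, so all p-values measure only the spread between these libraries. A line is a single cultured model, and in bulk cultures a change in the share of cells in a cycle phase and a change within each cell cannot be told apart.

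Cells copy their genome once per cycle by loading the MCM helicase at origins in G1 (licensing, by ORC, CDC6 and CDT1), by activating it in S phase with CDC7 kinase, CDC45 and GINS (firing), and by copying DNA with polymerases alpha, delta and epsilon, the PCNA clamp and its RFC loader. Cyclin A and cyclin B with CDK1, the Aurora and Polo kinases and the spindle checkpoint then carry the cell through mitosis. Transcription of these genes rises and falls with the cycle. E2F factors act through the E2F site in promoters of S-phase genes, and the CHR element, often with CCAAT boxes, serves promoters of mitotic genes and is read by the DREAM and MuvB complexes. EGFR signalling drives epithelial cells into the cycle, and the promoters of cycle genes are usually open in dividing cells.

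The windows of 300 bases around the canonical start (250 before to 50 after, GENCODE on GRCh37) were searched on both strands for the letters TTTCCCGC, TTTGGCGC, TTTGCCGC or TTTCGCGC (E2F site), TTTGAA or TTCGAA (CHR), CCAAT, and GGGCGG (GC box), none of which lies wholly within another. Overlapping matches of the same motif are shown as 1 run. An E2F match was found at 23 of 47 members (48.9%), against 5.54% of the 12619 protein-coding promoters with a region in the table and 4.37% of all 19478. A CHR match was found at 14 members (29.8%, against 10.5% and 12.7%) and CCAAT at 32 (68.1%, against 37.2% and 36.0%). The GC box was at 70.2% of members and 74.5% of promoters with a region (all promoters, 61.8%). E2F and CHR matches divided by role: 8 of 10 licensing genes held E2F letters and 1 held CHR letters, whereas 6 of 6 spindle checkpoint, mitotic exit and chromosome genes and 5 of 7 cyclin and kinase genes held CHR letters, with E2F letters at 0 and 1 of them. Both were present at 3 members (6.38%; 0.658% of promoters with a region, 0.519% of all). The genes were listed for their roles in the cycle, so these shares describe the list and a match is not evidence of binding. The lines that follow show the matches at promoters on which the treatment results below turn, as 30 bases of the gene's strand with the matched letters in capitals.
CDC6 (E2F, chr17:38444127-38444156, plus strand): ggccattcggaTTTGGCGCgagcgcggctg
MCM5 (E2F, chr22:35795923-35795952, plus strand): ccagccagaagTTTCGCGCCAAAttgttcc
CDT1 (E2F, chr16:88870151-88870180, plus strand): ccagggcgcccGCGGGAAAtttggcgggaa
POLA2 (E2F, chr11:65029369-65029398, plus strand): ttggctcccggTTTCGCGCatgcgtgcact
GINS2 (E2F, chr16:85722573-85722602, minus strand): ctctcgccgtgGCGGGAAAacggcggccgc
E2F8 (E2F, chr11:19262676-19262705, minus strand): tccgactttccGCGCCAAAtttttaaatcg
TYMS (E2F, chr18:657603-657632, plus strand): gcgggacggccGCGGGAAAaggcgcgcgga
CDK1 (E2F, chr10:62538097-62538126, plus strand): tttcctctttcTTTCGCGCtctagccaccc
CDK1 (CHR, chr10:62538211-62538240, plus strand): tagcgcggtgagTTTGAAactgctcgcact
TOP2A (CHR, chr17:38574282-38574311, minus strand): ctgattggtttaTTCAAAcaaaccccggcc
BUB1 (CHR, chr2:111435622-111435651, minus strand): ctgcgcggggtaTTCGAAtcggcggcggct
CDC20 (CHR, chr1:43824575-43824604, plus strand): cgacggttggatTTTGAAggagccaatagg
PLK1 (CHR, chr16:23690169-23690198, plus strand): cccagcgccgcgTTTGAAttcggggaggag

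Most members were wide, strongly cut regions across the start itself. The median region was 614 bases wide (510.0 over all promoter regions) with 64.2% GC (65.1%), 52 of 56 covered an annotated start, and 53 lay within 1 kb of the canonical start. The other 3 sit at alternative starts. They are the GINS1 region with the higher signal, which is also the ABHD12 promoter, the PCNA region with the lower signal, which is the CDS2 promoter, and the RRM2 region with the higher signal, centred at -2245.5 bases from the canonical start. Genes with 2 regions (9 of them) are written with the plain symbol for the region with the higher mean signal and as the second region for the other. In all, 13 regions were shared with the promoter of another gene, and their signal cannot be assigned to 1 gene. Among them were AURKA with CSTF1, CDC45 with UFD1, MCM2 with TPRA1, MCM7 with AP4M1, ORC1 with PRPF38A and ORC6 with VPS35. A called peak overlapped the member in all 17 libraries at 21 of 56 regions (37.5%, against 20.3% of promoter regions), and in at most 5 libraries at 6 regions (10.7%, against 24.1%), which were BIRC5, CDT1, E2F2 and the second regions of E2F1, ORC6 and RRM1.

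The deposited signal is a normalised read count, in which each value is a whole number of reads times 1 factor per library. Reads in regions came to between 2194851 (SCC1 cetuximab replicate 2) and 15017130 (SCC6 cetuximab replicate 3) per library. Members took 0.201% to 0.238% of the signal in SCC1 libraries, 0.143% to 0.183% in SCC6 and 0.151% to 0.165% in SCC25. The share of the signal at all promoter regions moved with treatment in each line. It was 38.5% to 42.3% after cetuximab and 34.8% to 34.9% in PBS in SCC1, 30.5% to 33.3% and 35.9% to 36.0% in SCC6, and 32.0% to 32.3% and 30.2% to 30.5% in SCC25. Its part in the member results was not tested. The epithelial genes KRT5, TP63, CDH1, SFN and DSP had promoter signal in all 3 lines (means 23.4 to 152). In SCC1, however, TP63 (mean 31.8) had a peak in 0 libraries and KRT5 in 1. KRT14 in SCC6 was at 1.74, close to the floor of 1 read, with a peak in 0 libraries. KRT6A was at 7.87 in SCC6 (53.3 in SCC1 and 70.4 in SCC25) with a peak in 0 libraries of SCC6 and of SCC1. None of the leukocyte, endothelial and hepatocyte markers PTPRC, CD3E, PECAM1, CDH5, LYZ and ALB had a promoter region in the table. The RFC2 region, at the promoter of a clamp loader subunit, was listed at the floor of 1 read in all 17 libraries although 9 libraries had a peak there. The same was true of 3212 of the 3251 regions at the floor in every library, so RFC2 was not tested and 55 member regions remained.

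Levels differed widely among members. Per kb of region and leaving out RFC2, the mean signal over all libraries ran from 76.0 at BIRC5, which encodes survivin of the chromosomal passenger complex, to 593 at AURKA, the Aurora A kinase promoter shared with CSTF1. After AURKA came MCM3 (504), the PCNA second region (446), CDC7 (334) and ORC6 (328), and next to BIRC5 at the low end stood ORC1 (95.6), E2F2 (108) and AURKB (112). In signal as deposited, AURKA was at 401 and 313 in SCC1, 619, 519.9 and 539 in SCC6 and 330.1, 320.2 and 279 in SCC25 PBS libraries, and after cetuximab at 357, 331 and 396, 512, 582 and 545, and 361, 353 and 326 in the same order of lines. BIRC5 was at 50.7 and 50.2 in SCC1, 35.04, 43.5 and 45.7 in SCC6 and 27.1, 27.4 and 12.7 in SCC25 PBS libraries, and after cetuximab at 93.9, 85.6 and 70.4, 32.3, 27.9 and 30.4, and 12.7, 34.5 and 26.6 in the same order of lines. The lowest AURKA value was thus above the highest BIRC5 value in every line. The genes that follow had the highest or the lowest total signal among the main regions of their role, a choice that also reflects region width and is no ranking of the genes. In licensing these were ORC6, an origin recognition subunit (328 per kb, shared with VPS35), and CDT1, the MCM loader (153 per kb). CDT1 was at 27.3 and 29.0 in SCC1, 30.2, 30.8 and 34.8 in SCC6 and 21.5, 21.6 and 29.7 in SCC25 PBS libraries, and after cetuximab at 80.0, 42.8 and 65.7, 27.3, 22.3 and 19.5, and 33.7, 23.4 and 19.5 in the same order of lines. ORC6 was at 622 and 636 in SCC1, 596, 552 and 561 in SCC6 and 622, 551 and 553 in SCC25 PBS libraries, and after cetuximab at 513, 514 and 626, 484, 495 and 445, and 600.4, 607 and 545 in the same order of lines. In firing these were CDC7, the kinase that activates the helicase, and GINS2, a GINS subunit (216 per kb). CDC7 was at 330.5 and 363 in SCC1, 227, 235 and 258 in SCC6 and 591, 556 and 506 in SCC25 PBS libraries, and after cetuximab at 321, 224 and 354, 220.2, 219 and 197, and 539.9, 569.9 and 508 in the same order of lines. For the clamp group it was PCNA, the sliding clamp (294 per kb), and for nucleotide synthesis TYMS (210.4 per kb) and RRM2 (219 per kb). PCNA was at 371 and 349.5 in SCC1, 198, 153 and 198 in SCC6 and 316, 292 and 314 in SCC25 PBS libraries, and after cetuximab at 386, 319 and 454, 142, 165 and 162, and 267, 333 and 296 in the same order of lines. CDC20, the anaphase-promoting complex activator, had 261 per kb. CDC20 was at 204 and 179 in SCC1, 298, 302 and 258 in SCC6 and 141, 134 and 138 in SCC25 PBS libraries, and after cetuximab at 355, 222 and 313, 232, 270.2 and 285, and 125, 171 and 179 in the same order of lines. AURKB encodes the Aurora B kinase, and E2F2 an activator of the E2F family. AURKB was at 91.1 and 94.9 in SCC1, 67.7, 81.0 and 100.1 in SCC6 and 86.3, 62.02 and 69.6 in SCC25 PBS libraries, and after cetuximab at 169, 113 and 158, 80.8, 69.6 and 74.4, and 74.5, 80.8 and 103 in the same order of lines. E2F2 was at 22.1 and 15.6 in SCC1, 19.3, 22.7 and 15.2 in SCC6 and 25.2, 24.5 and 21.2 in SCC25 PBS libraries, and after cetuximab at 40.6, 19.5 and 45.4, 22.2, 21.4 and 19.5, and 29.5, 28.0 and 26.6 in the same order of lines. RRM2 encodes the regulated subunit of ribonucleotide reductase. RRM2 was at 160.0 and 153 in SCC1, 119.6, 147 and 171 in SCC6 and 104, 103 and 67.0 in SCC25 PBS libraries, and after cetuximab at 185, 95.4 and 164, 92.9, 123 and 103, and 70.3, 91.8 and 81.5 in the same order of lines. SCC25 values of RRM2 were lower than those of both other lines in PBS.

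**Figure D1:**
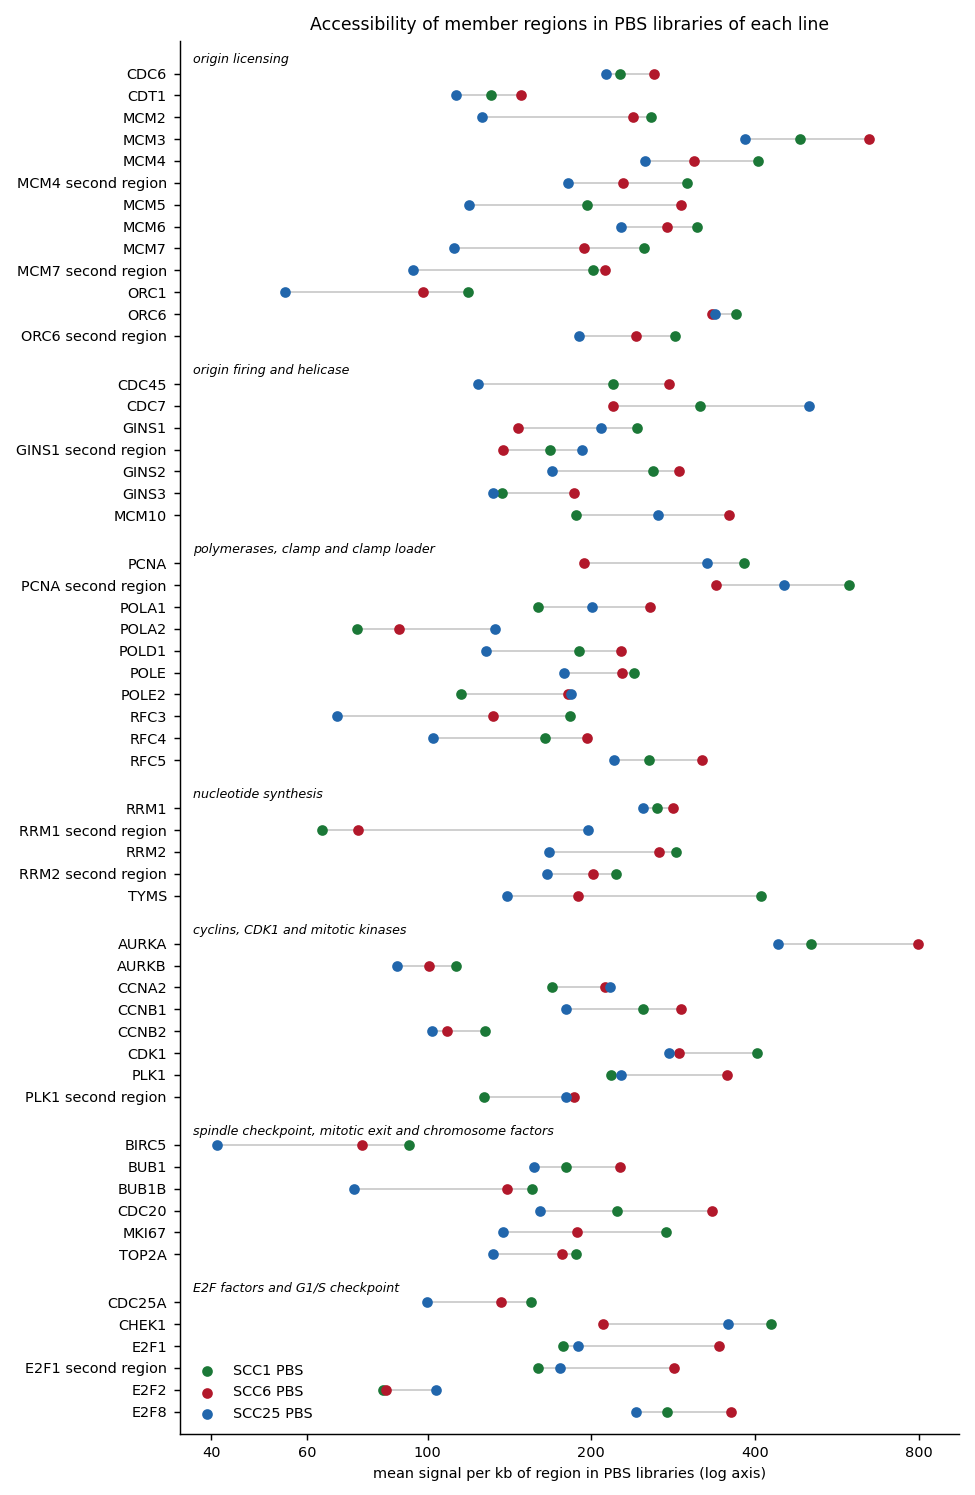
Mean signal per kb of each member region in the PBS libraries of SCC1 (2 libraries, green), SCC6 (3, red) and SCC25 (3, blue) on a log axis, grouped by role. SCC25 points lie leftmost at all 6 checkpoint and chromosome regions and at most licensing regions, while CDC7, POLA2 and the RRM1 second region have SCC25 rightmost.

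In SCC1, the accessibility of 10 of 55 member regions rose after cetuximab and 1 fell (limma on log2 of signal plus 1, adjusted p under 0.05). The background over promoter regions was 13.6% higher and 1.6% lower, and over all tested regions 4.57% and 6.56%, so the members' share higher (18.2%) was near that of promoters at large. The median log2 change was 0.087 over members, 0.18 over promoters and -0.091 over all regions. The regions that rose belonged to licensing (CDC6, CDT1, MCM5, MCM7), firing (CDC45), the polymerases (POLA2), the checkpoint and chromosome group (TOP2A, BUB1, CDC20) and the G1/S phosphatase CDC25A. The region that fell was at CHEK1, the S-phase checkpoint kinase. None of 8 cyclin and mitotic kinase regions and none of 5 nucleotide synthesis regions passed.

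The coordinates given with a gene are those of its region, on hg19, with what the canonical transcript has there. CDC6 (chr17:38443783-38444222, UTR exon), which with CDT1 loads the MCM helicase, had a signal of 221, 152 and 254 after cetuximab and 101 and 97.1 in PBS in SCC1, and the groups did not overlap. Its log2 change was 1.03 ± 0.22 (SE, adjusted p 0.000184). POLA2 (chr11:65029074-65029786, UTR and coding sequence), the accessory subunit of the priming polymerase, was at 156, 83.7 and 156 after cetuximab and 52.0 and 53.6 in PBS, a change of 1.25 ± 0.26 (adjusted p 0.000203). Replicate 2, the shallowest library, was the lowest of the treated values at both genes and still above PBS. TOP2A (chr17:38574069-38574638, UTR exon), the topoisomerase that untangles chromosomes, was at 251, 171 and 202 after cetuximab and 100.2 and 114 in PBS (0.94 ± 0.21, adjusted p 0.000658). CDC45 (chr22:19466584-19467557, UTR and coding sequence), part of the active helicase, was at 359, 273 and 402 after cetuximab and 251 and 175 in PBS (0.69 ± 0.17, adjusted p 0.00241). Every treated value lay above every PBS value at these genes as well, which follows in part from their choice by smallest adjusted p. CDC20 (chr1:43823930-43824786, UTR exon) was at 355, 222 and 313 against 204 and 179 (0.61 ± 0.18, adjusted p 0.0147), and BUB1 (chr2:111435585-111435906, UTR exon), a spindle checkpoint kinase, at 133, 79.8 and 113 against 58.5 and 56.9 (0.87 ± 0.27, adjusted p 0.0189). The remaining 4 that rose were CDT1 (1.08), MCM5 (0.73), CDC25A (0.69) and MCM7 (0.63), with adjusted p between 0.0192 and 0.0264. CHEK1 (chr11:125495354-125496620, UTR exon) was at 377, 399 and 448 after cetuximab and 519 and 567 in PBS, without overlap, and its log2 change was -0.41 ± 0.14 (adjusted p 0.0422). TYMS (chr18:657388-658780, UTR and coding sequence), which makes thymidylate, was lower by values (459, 424 and 430.4 after cetuximab and 601 and 543 in PBS) but did not pass (adjusted p 0.0581).

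The SCC1 changes moved with those of the surrounding chromosome. Over the 55 member regions, the log2 change correlated with the median change of the other tested regions within 1 Mb (Pearson's r = 0.838, Spearman's rho = 0.803, a description over regions that share libraries). With promoter regions left out of the neighbourhood r was 0.819, and over 14549 promoter regions it was 0.573. The 137 regions around POLA2 had a median change of 0.74, the 73 around CDC6 0.64 and the 58 around CDC25A 0.71, against 0.13 around MCM5 and -0.23 around CHEK1. CDC6 and TOP2A lie close together on chromosome 17 and share much of 1 neighbourhood. When each value was scaled to the signal within 1 Mb, an alternative chosen after seeing the data, 0 of 55 members passed in either direction (4.75% of promoter regions higher). CDC6 then stood at 0.46 (limma, adjusted p 0.13), POLA2 at 0.55 (adjusted p 0.169) and MCM5 at 0.58 (adjusted p 0.0625). In SCC6 and SCC25 the same correlation was 0.179 and 0.261.

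**Figure D2:**
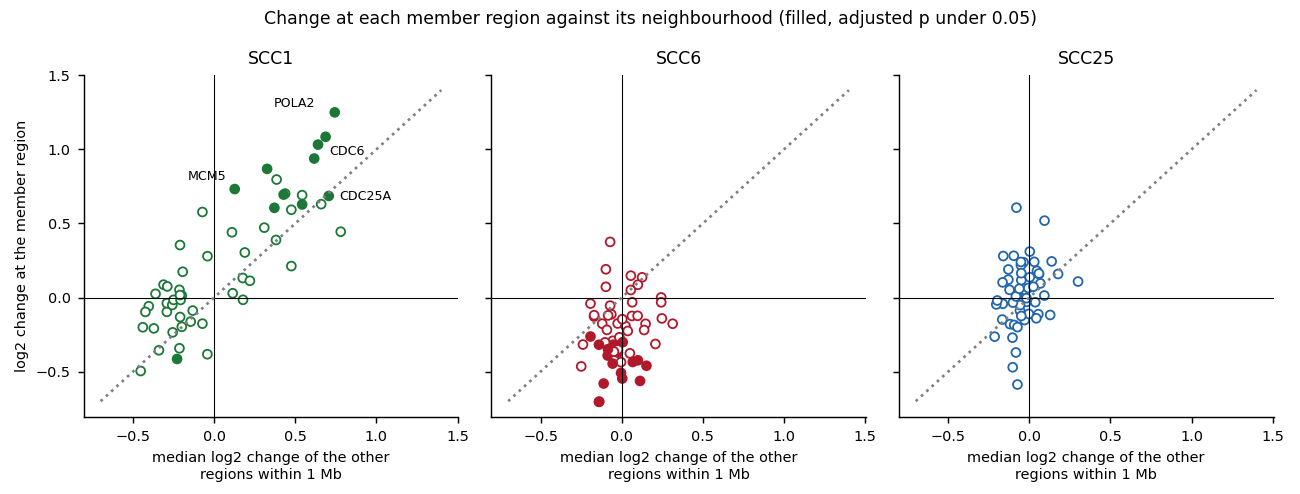
Log2 change after cetuximab at each of 55 member regions (y axis) against the median log2 change of the other tested regions within 1 Mb (x axis), by line, with regions past the threshold filled and a dotted line where both are equal. SCC1 points rise along the line (r = 0.838), whereas the filled SCC6 points sit low over neighbourhoods near 0 (r = 0.179).

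The SCC1 count also changed with the libraries included. Leaving out cetuximab replicate 1 or 3 left 4 regions higher (5.30% and 6.97% of promoter regions), and leaving out cetuximab replicate 2 gave 16 (21.9%). Leaving out PBS replicate 1 or 3 left 1 library in that group, with a member median of 0.13 and 0.11 (promoters 0.15 and 0.21). With the GC trend of each library removed, 5 members rose and 3 fell (7.37% and 3.55% of promoter regions), and the member median turned to -0.057. CDC6 and POLA2 passed in 14 of 15 alternatives and lost the call only under the scaling to signal within 1 Mb. Among these alternatives, the block on replicate number largely repeats leaving out cetuximab replicate 2, which has no PBS library of its number.

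In SCC6, 17 of 55 member regions fell after cetuximab and 0 rose (limma, adjusted p under 0.05). The edgeR and DESeq2 alternatives called 20 and 19 of 55 lower and 0 higher, against 16.3% and 12.6% of promoter regions lower. An unadjusted p under 0.05 (limma) was found at 22 members and at 3491 of 14093 promoter regions. In the limma fit, promoter regions fell in 10.9% of cases and rose in 3.77%, and over all regions 10.6% fell and 16.9% rose. The members' share lower (30.9%) was thus above both backgrounds. Members also had a higher median signal than promoter regions (117 against 75.6) and a smaller median SE in this fit (0.146 against 0.185). The part of these in the share called was not tested. By value, 47 of 55 were below 0 (85.5%, against 66.7% of promoter regions and 43.3% of all regions). The median log2 change was -0.23, against -0.11 over promoters and 0.11 over all regions. Among roles, 4 of 6 E2F and G1/S regions fell, 3 of 7 in firing, 3 of 10 in the polymerase and clamp group, 2 of 5 in nucleotide synthesis, 2 of 6 in the checkpoint and chromosome group, 2 of 8 among cyclins and kinases, and 1 of 13 in licensing. The MCM2 to MCM7 regions lay between -0.23 (MCM5) and 0.19 (MCM7 second region) and none passed.

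CDK1 (chr10:62537825-62538671, UTR exon), the kinase that drives mitotic entry, was at 193, 176 and 148 after cetuximab and 269, 211 and 256 in PBS in SCC6, without overlap, and its log2 change was -0.51 ± 0.12 (SE, limma, adjusted p 0.00113). GINS2 (chr16:85722424-85722789, UTR and coding sequence) was at 48.5, 73.3 and 75.7 after cetuximab and 100.3, 97.7 and 121 in PBS (-0.70 ± 0.19, adjusted p 0.00413). The highest treated value was below the lowest PBS value there too. ORC6 (chr16:46722206-46723912, UTR and coding sequence) was at 484, 495 and 445 after cetuximab and 596, 552 and 561 in PBS (-0.26 ± 0.075, limma, adjusted p 0.00642). That is a small change at a region with many reads, which VPS35 shares. E2F8 (chr11:19262363-19262858, UTR exon), an atypical repressor of the E2F family, was at 119, 137 and 134 after cetuximab and 191, 175 and 172 in PBS (-0.46 ± 0.13, adjusted p 0.00694). MKI67 (chr10:129924396-129925228, UTR exon), which encodes the proliferation marker Ki-67, was at 124, 110.5 and 112 after cetuximab and 186, 138 and 146 in PBS (-0.42 ± 0.15, adjusted p 0.0245). CHEK1 was at 197, 232 and 211 after cetuximab and 296, 262 and 241 in PBS (-0.32 ± 0.11, adjusted p 0.0254). At none of these 6 regions did the groups overlap, which follows in part from their choice by smallest adjusted p and adds no separate support.

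The other 11 regions that fell had log2 changes from -0.70 (E2F1 second region) to -0.30 (TYMS) and adjusted p from 0.0266 to 0.0481. In S-phase functions they were RRM2 (-0.45), the regulated ribonucleotide reductase subunit, at its upstream start, TYMS, and POLE (-0.39), the leading-strand polymerase, whose promoter PXMP2 shares. With them were RFC3 (-0.56) of the clamp loader, GINS3 (-0.44) and the GINS1 second region (-0.55), which holds the canonical start. The PCNA second region (-0.35), which is the CDS2 promoter, also fell. In mitosis they were PLK1 (-0.37), the Polo kinase, and BUB1B (-0.58), the checkpoint protein BubR1. Both E2F1 regions fell (-0.32 at the start and -0.70 downstream of it). The other region of PCNA and of RRM2 had a change of the same sign. The canonical PCNA region changed by -0.22 (adjusted p 0.206) and the canonical RRM2 region by -0.37 (adjusted p 0.0974, limma), neither of which passed, and the difference between regions of a gene was not tested.

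**Figure D3:**
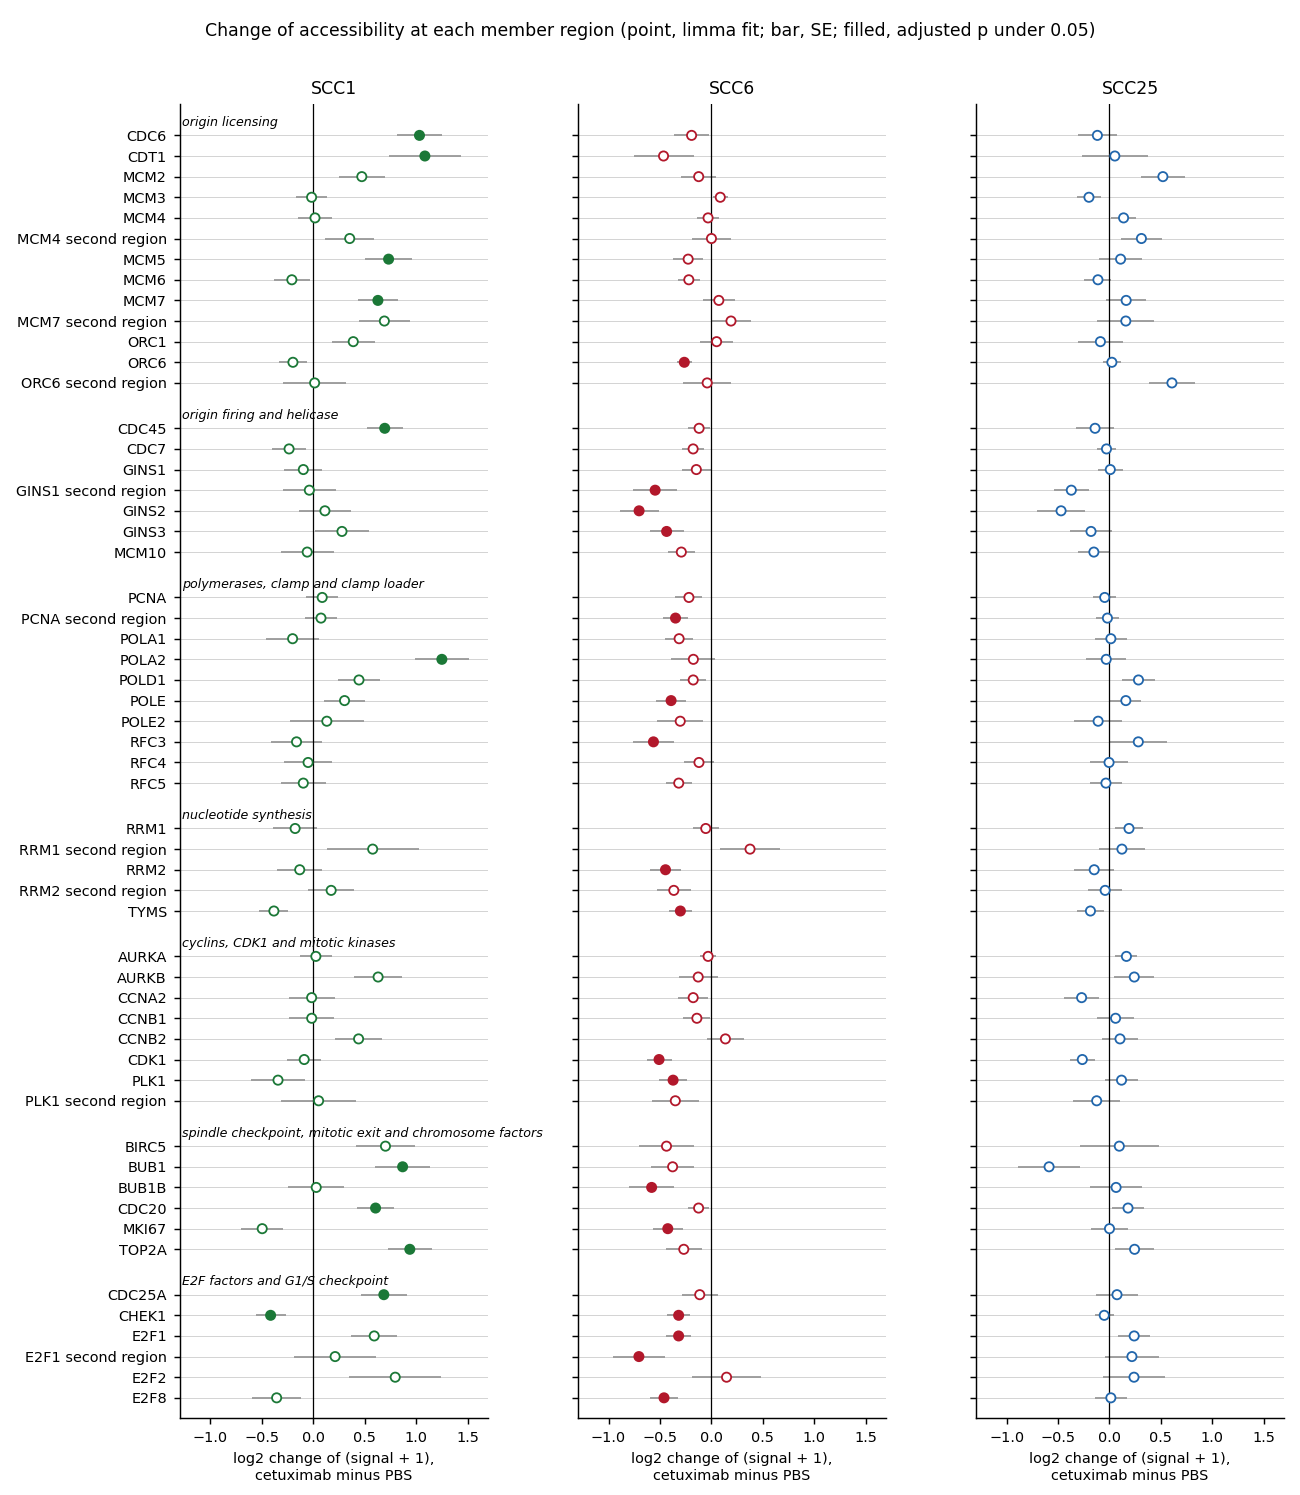
Log2 change of signal plus 1, cetuximab minus PBS, at each of 55 member regions in SCC1, SCC6 and SCC25, with the SE of the limma fit as a bar and adjusted p under 0.05 as a filled point. Filled points lie to the right in SCC1 except CHEK1 and to the left in SCC6, and SCC25 has none; under scaling to reads without a peak the SCC6 member median is -0.0012 and most of its filled points are lost.

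The size of the SCC6 fall depended on the scale. Taking reads in regions without a peak as the reference (22792 regions) moved the median of all SCC6 regions from 0.11 to 0.33, put the member median at -0.0012 and left 1 member lower (GINS2) and 1 higher, against 2.44% and 13.3% of promoter regions. Members still lay below promoters at large, whose median became 0.11. Centring each library on its median gave 29 of 55 members lower, a larger share than the 28.9% of promoter regions. Removing the GC trend left 4 lower, near the promoter share of 5.16%, with a member median of -0.12 and a promoter median of -0.0060, and across members the change correlated with GC content (r = -0.394, rho = -0.296, n = 55, with libraries in common). Scaling to the signal within 1 Mb left 13 of 55 lower, also a larger share than the 14.1% of promoter regions. Leaving out any 1 library left 7 to 10 of 55 lower, with 6.66% to 11.3% of promoter regions lower. GINS2 passed in all 16 alternatives, and CDK1 and E2F8 in 15 of 16, failing under the scaling to reads without a peak.

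**Figure D4:**
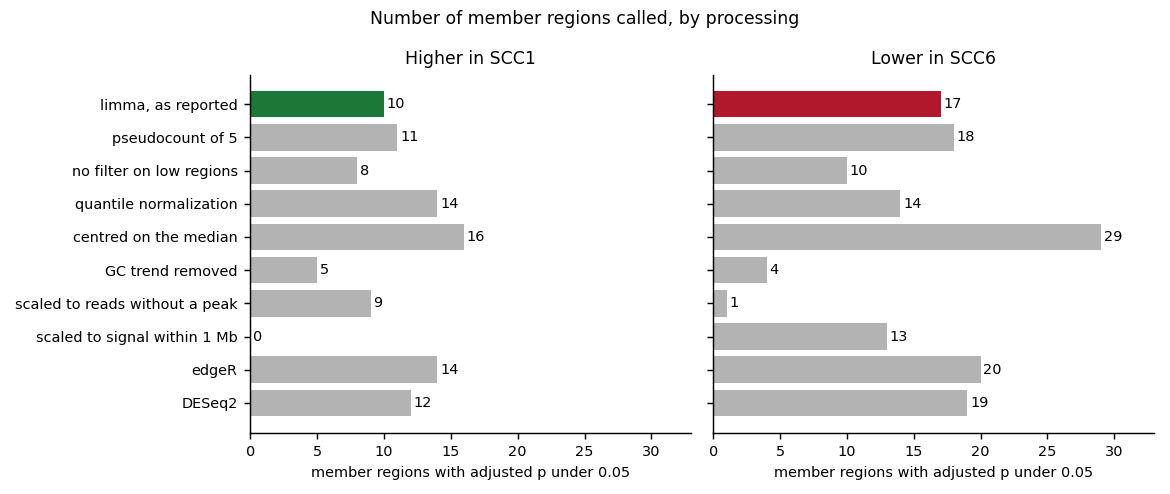
Number of the 55 member regions with adjusted p under 0.05 (x axis) for each way of processing (y axis), higher after cetuximab in SCC1 and lower after cetuximab in SCC6. The SCC1 count falls from 10 to 0 under scaling to signal within 1 Mb, and the SCC6 count from 17 to 1 under scaling to reads without a peak.

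In SCC25, 0 of 55 member regions passed in either direction (limma). An unadjusted p under 0.05 was found at 4 members and at 1240 of 14511 promoter regions. The edgeR and DESeq2 alternatives called 0 members, against 0.875% and 0.289% of promoter regions. The limma background was as low, with 0.0276% of promoter regions higher and 0.0276% lower (0.0405% and 0.275% of all regions). The member median was 0.013 and the promoter median 0.024. Single members ranged from -0.59 (BUB1, 95% interval -1.21 to 0.037) to 0.61 (ORC6 second region, 0.14 to 1.07), so both of these intervals are wide beside the changes called in SCC6. The 4 with the smallest p were the ORC6 second region, MCM2 (0.52), the GINS1 second region (-0.37) and CDK1 (-0.26). CDK1 was at 217, 179.8 and 193 after cetuximab and 229, 252 and 226 in PBS, with a 95% interval of -0.52 to -0.0093 (adjusted p 0.357), and GINS2 at 32.3, 44.9 and 60.2 after cetuximab and 65.2, 60.6 and 60.2 in PBS (interval -0.95 to 0.0098, adjusted p 0.39). The groups did not overlap at either gene, although the highest treated and the lowest PBS value of GINS2 were nearly equal. Scaling to reads without a peak, which moved the median of all SCC25 regions to -0.37, gave 12 of 55 members lower, a larger share than the 13.3% of promoter regions.

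With the 3 lines in 1 fit and line as a covariate, 3 members fell after cetuximab and 0 rose, against 2.0% and 1.86% of promoter regions (limma, 7.04% and 5.14% of all regions). An unadjusted p under 0.05 was found at 10 members and at 2122 of 14433 promoter regions. The edgeR and DESeq2 alternatives called 0 members higher, against 2.09% and 4.27% of promoter regions. The 3 that fell were TYMS (-0.28 ± 0.072, SE, limma, adjusted p 0.0124), CHEK1 (-0.25 ± 0.070, adjusted p 0.0217) and CDK1 (-0.30 ± 0.090, adjusted p 0.0297). TYMS was at 212, 209.8 and 214 after cetuximab and 229.6, 258 and 301 in PBS in SCC6, and at 169, 190.2 and 156 and 189.6, 198 and 196 in SCC25. The groups did not overlap in SCC1 or SCC6 and overlapped in SCC25, where treated replicate 2 lay just above the lowest PBS library. CHEK1 in SCC25 was at 412, 427 and 469 after cetuximab and 448, 456 and 449.6 in PBS, where the groups overlapped. The next 3 by p were the GINS1 second region (-0.34, adjusted p 0.0727), E2F8 (-0.26, 0.0923) and GINS2 (-0.39, 0.0938), which did not pass. The GINS1 second region was at 95.2, 85.6 and 98.6 against 89.8 and 102 in SCC1, 41.4, 52.9 and 69.1 against 71.3, 85.0 and 79.4 in SCC6 and 75.9, 87.3 and 90.3 against 104, 102 and 123 in SCC25. Treated and PBS values of it overlapped in SCC1 and not in SCC6 or SCC25. CDK1 in SCC1 was at 386, 313 and 275 after cetuximab and 337 and 347 in PBS, where the groups overlapped. GINS2 in SCC1 was at 110.4, 81.8 and 121 after cetuximab and 96.3 and 93.8 in PBS, also with overlap. E2F8 was at 113, 91.5 and 116 after cetuximab and 144 and 128 in PBS in SCC1, without overlap, and at 107, 119 and 138 after cetuximab and 115, 133 and 112 in PBS in SCC25, with overlap. Scaling to reads without a peak turned the pooled direction, with 22 members higher and 0 lower, which is near the promoter shares of 39.3% and 0.166% in the same fit, and only 300 regions had no peak in any library and they held 911 to 5203 reads per library.

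The effect of cetuximab differed between the lines at 6 members (limma F-test of the interaction), 10.9% of 55 against 13.5% of promoter regions and 13.2% of all regions. They were POLA2 (adjusted p 0.00795), CDC6 (0.0097), TOP2A (0.0102), E2F1 (0.0144), BUB1 (0.0319) and CDC45 (0.0391). In each, the log2 change was above 0.5 in SCC1 and below 0 in SCC6. POLA2 was at 57.6, 51.1 and 57.9 after cetuximab and 61.6, 54.9 and 72.9 in PBS in SCC6 and at 73.1, 84.7 and 128 after cetuximab and 86.3, 93.0 and 105 in PBS in SCC25, with log2 changes of -0.18 and -0.032. CDC6 was at 75.8, 122 and 109 after cetuximab and 124, 108 and 112 in PBS in SCC6 and at 105, 97.7 and 61.99 after cetuximab and 95.3, 93.7 and 91.6 in PBS in SCC25 (-0.19 and -0.12). The 2 groups of a line overlapped at both genes in both lines. TOP2A was at 72.7, 85.4 and 93.2 after cetuximab and 109.9, 95.7 and 96.8 in PBS in SCC6 and 109.7, 78.8 and 79.7 after cetuximab and 64.8, 72.1 and 88.2 in PBS in SCC25 (-0.27 and 0.24). E2F1 (chr20:32273932-32274533, UTR and coding sequence), the activator that opens the G1/S programme, was at 185, 136 and 166 after cetuximab and 111 and 103 in PBS in SCC1 (0.59, adjusted p 0.0675), 154, 171 and 172 after cetuximab and 217, 203 and 199 in PBS in SCC6 (-0.32, adjusted p 0.042) and 141, 114 and 151 after cetuximab and 113, 106 and 122 in PBS in SCC25 (0.24, adjusted p 0.535, limma). Its groups did not overlap in SCC1 or SCC6, with opposite order. BUB1 was at 49.5, 53.8 and 65.1 after cetuximab and 72.5, 76.3 and 69.6 in PBS in SCC6 and 38.0, 52.8 and 17.7 after cetuximab and 49.0, 41.8 and 61.1 in PBS in SCC25, and CDC45 at 269, 232 and 247 after cetuximab and 271, 284 and 258 in PBS and 80.1, 139 and 115 after cetuximab and 103, 123 and 137 in PBS. Scaled to the signal within 1 Mb, 2 members differed between lines (10.1% of promoter regions), and the count over the other alternatives ran from 3 to 20. Among the 10 members that rose in SCC1, the log2 change in SCC6 lay between -0.47 (CDT1) and 0.072 (MCM7).

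**Figure D5:**
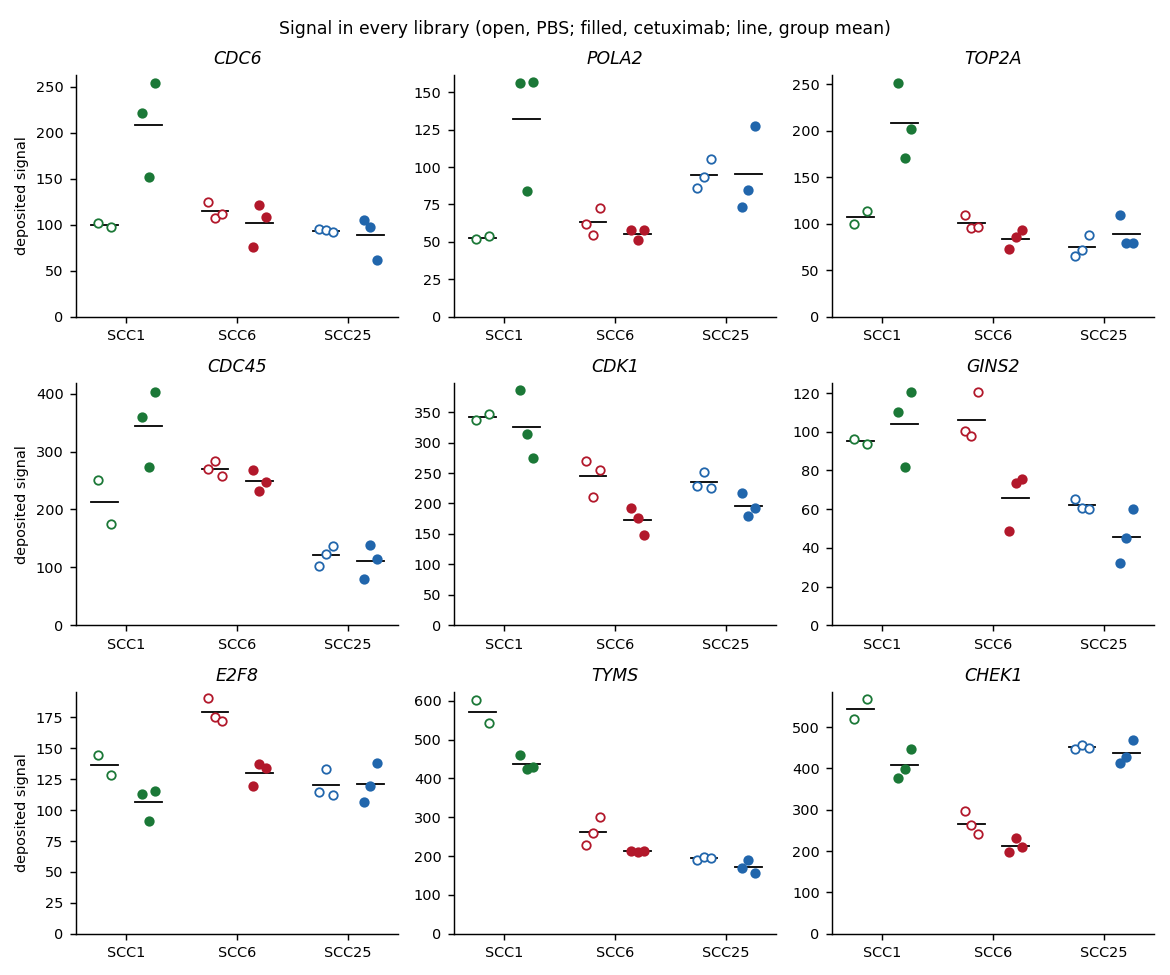
Deposited signal (y axis, from 0) in every library at 9 member regions, by line, with PBS libraries open, cetuximab libraries filled and a line at each group mean. CDC6, POLA2, TOP2A and CDC45 separate in SCC1, and CDK1, GINS2 and E2F8 in SCC6. CHEK1 and TYMS are lower after cetuximab in both of these lines. The groups also do not overlap at E2F8 in SCC1, TOP2A in SCC6, and CDK1 and GINS2 in SCC25, each lower after cetuximab.

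Without treatment, the lines differed at many members. SCC25 was lower than SCC6 at 32 of 55 regions and higher at 8 (58.2% and 14.5%, against 42.3% and 18.8% of promoter regions), and lower than SCC1 at 29 and higher at 5 (52.7% and 9.09%, against 31.2% and 19.1%). SCC6 was higher than SCC1 at 12 and lower at 10, against 28.4% and 21.2%. The member median of SCC25 minus SCC6 was -0.42 (promoters -0.29) and of SCC25 minus SCC1 -0.37 (promoters -0.18). By role, all 6 checkpoint and chromosome regions were lower in SCC25 than in SCC6, and 10 of 13 licensing regions lower than in SCC1.

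The 4 members with the smallest adjusted p in each pair of lines were these. Between SCC6 and SCC1 they were CHEK1 (-1.03 ± 0.097, SE), TYMS (-1.12 ± 0.12), PCNA (-0.98 ± 0.12) and E2F1 (0.95 ± 0.13), with adjusted p from 2.2e-07 to 1.8e-05 (limma). The PBS values of CHEK1, TYMS, PCNA and E2F1 given above do not overlap between these lines. Between SCC25 and SCC1 they were TYMS (-1.55 ± 0.12), RFC3 (-1.39 ± 0.19), CDC7 (0.67 ± 0.10) and MCM7 (-1.15 ± 0.18), with adjusted p from 7.7e-08 to 1.0e-04 (limma). RFC3 was at 125 and 102 in SCC1, 88.2, 84.3 and 72.9 in SCC6 and 43.3, 44.7 and 39.0 in SCC25, and after cetuximab at 145, 115 and 61.0, 54.6, 49.2 and 61.5, and 29.5, 59.3 and 77.9. MCM7 was at 146 and 165 in SCC1, 93.0, 134 and 135 in SCC6 and 71.6, 63.5 and 73.8 in SCC25, and after cetuximab at 294, 185 and 255, 118, 131 and 126, and 87.2, 87.3 and 61.99. SCC25 PBS values were below those of both other lines at each. Between SCC25 and SCC6 they were CDC7 (1.195 ± 0.089), CDC20 (-1.04 ± 0.11), MCM3 (-0.76 ± 0.084) and CHEK1 (0.76 ± 0.087), with adjusted p from 1.1e-08 to 1.3e-06 (limma). MCM3, an MCM helicase subunit, was at 398 and 403 in SCC1, 555, 509.9 and 547 in SCC6 and 335, 336 and 283 in SCC25, and after cetuximab at 395, 426 and 369, 579, 585 and 547, and 231, 289 and 315.

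These differences between lines also moved with the neighbourhood. Over 55 members, r with the median difference of the other regions within 1 Mb was 0.808 for SCC6 minus SCC1, 0.787 for SCC25 minus SCC1 and 0.791 for SCC25 minus SCC6 (rho 0.818, 0.820 and 0.757), and 0.488, 0.572 and 0.452 over all promoter regions. The 79 regions around CDC7 had a median SCC25 minus SCC6 difference of 1.76, above that of CDC7 itself, so CDC7 was lower in SCC25 once scaled to the signal within 1 Mb (-0.36). The medians were -1.301 around MCM5 (MCM5 itself -1.29), -0.95 around TYMS for SCC25 minus SCC1, and -0.16 around MCM3, whose own difference was larger. Under that scaling 12, 18 and 23 members differed between SCC6 and SCC1, SCC25 and SCC1, and SCC25 and SCC6, in place of 22, 34 and 40. The promoter shares under it were 36.8%, 31.9% and 46.3%, so these member counts were near or below the background. What these neighbourhood differences share with the member values was not tested further.

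Other genes of the same processes were counted with the same test. Of 40 tested promoter regions of 33 other replication genes, 11 rose and 0 fell in SCC1 (27.5%), 1 rose and 4 fell in SCC6 (2.50% and 10.0%), and 0 passed in SCC25 (limma; 1 with an unadjusted p under 0.05). Of 47 tested regions of 41 other mitosis genes, 8 rose and 0 fell in SCC1 (17.02%), 0 rose and 11 fell in SCC6 (23.4%), and 0 passed in SCC25 (4 with an unadjusted p under 0.05). Beside the promoter backgrounds given above, the share of other replication regions lower in SCC6 was near that of promoters (10.9%) and the share of other mitosis regions was above it. In SCC1 the replication genes with the smallest adjusted p were LIG1 (1.08), the ligase that joins Okazaki fragments, POLD3 (0.82), CHAF1A (1.198) and the single-strand binding subunits RPA1 (0.97) and RPA2 (1.03), and the mitosis genes were CKS1B (0.88), NUSAP1 (0.69) and PKMYT1 (1.35). In SCC6 the mitosis genes were NEK2 (-0.68), BUB3 (-0.47), MYBL2 (-0.74), a MuvB partner, CENPF (-0.40), CKS2 (-0.36) and FOXM1 (-0.57), the mitotic activator, and the replication genes were LIG1 (-0.41), GMNN (-0.26), which encodes the licensing inhibitor geminin, MCM8 (-0.50) and RPA3 (-0.21), with PRIM2 (0.50) higher. LIG1, CKS2 and SPC24, a kinetochore subunit, passed in opposite directions in SCC1 and SCC6, and the interaction test gave adjusted p of 0.00017, 0.00226 and 0.000224 (limma).

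In SCC6 the median changes of members with and without E2F letters lay close together. Each gene with a tested region was taken at the region with the higher signal. The median SCC6 log2 change was -0.23 for 23 genes with an E2F match and -0.22 for 23 without. It was -0.24 for 14 genes with CHR letters and -0.22 for 32 without. The main regions of GINS1, RRM2 and CHEK1 lie outside the windows around the canonical start that were searched for motifs. In SCC1 the medians were 0.28 with and -0.015 without E2F letters, with 6 and 5 regions called, and 0.23 and 0.052 with and without CHR letters. In SCC25 all of these medians lay between -0.017 and 0.11. Of the 23 genes with E2F letters, 6 were called in SCC1 (CDC6, CDT1, MCM5, POLA2, CDC25A and MCM7, all higher), against 5 of 23 without. In SCC6, 8 of 23 with E2F letters were called (E2F1, E2F8, GINS2, GINS3, TYMS, CDK1, POLE and RFC3, all lower), against 6 of 23 without. MCM2, MCM3, MCM4 and MCM6 hold E2F letters and were called in neither line.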

How the data were processed

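ATAC-seq of SCC1, SCC6 and SCC25 cells was read from the deposited table of regions and the deposited peak lists, for 17 libraries. Per the submitters' processing notes and the study's methods, the authors used Trim Galore 0.5.0 for trimming, Bowtie2 2.3.2 for alignment to hg19 (GRCh37), Picard 2.18 to drop duplicates and mitochondrial reads, and SAMtools 1.9 to drop unmapped or poor reads. MACS2 gave broad peaks per library, and DiffBind merged these into regions (versions of these 2 and cutoffs not given in the sources used here). The deposited signal is whole reads (0 set to 1) times 1 factor per library, and 100% of values came out whole within 0.001 of a read. The deposited peak lists give a fold enrichment (a ratio) and −log10 p-values and q-values, and a peak counted at a region when it overlapped by at least 1 base.

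Starts came from GENCODE release 44 on GRCh37. limma 3.58.1 (R 4.3.3; trend and robust empirical Bayes, two-sided) was fitted to log2(signal + 1) after leaving out the 25% of regions lowest in mean, with Benjamini-Hochberg adjustment over all tested regions and a threshold of 0.05. A change is on the log2(signal + 1) scale, which understates changes of low regions. Fits were made within each line, over all lines with line as a covariate, with an interaction of line and treatment, and between the PBS libraries of the lines. edgeR 4.0.16 and DESeq2 1.42.0 on the recovered reads were alternatives, with other scalings, filters and pseudocounts and each library left out in turn. The scripts were tested on simulated data. Python 3.11.15, numpy 2.4.6, pandas 2.3.3, scipy 1.17.1, matplotlib 3.10.9 and bedtools 2.31.1 did the rest. Total reads per library are not given by the files, so depth is the number of reads in regions.

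The members and lists were chosen with earlier results of these data known. Values in every library are given, by rule, for up to 6 called members in each direction and line with the smallest adjusted p, the 6 with the smallest adjusted p over all lines and in the interaction, 4 in each pair of PBS groups, and the main region with the highest and the lowest mean signal of each role. A lack of overlap at members chosen by adjusted p follows in part from that choice. Other genes are named up to 6 a line and list. One marker gene of the fixed list is not reported here.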

Additional observations from a re-analysis of the deposited data

Results flagged for a closer look

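At 6 of 55 members (10.9%, against 13.5% of promoter regions) the effect of cetuximab differed between the lines by the test of the difference itself (limma F-test for line by treatment). The adjusted p was 0.00795 at POLA2, 0.0097 at CDC6, 0.0102 at TOP2A, 0.0144 at E2F1, 0.0319 at BUB1 and 0.0391 at CDC45. Their values in every library stand with the results above. In SCC1 the other regions within 1 Mb had median log2 changes of 0.74 around POLA2, 0.64 around CDC6, 0.62 around TOP2A and 0.43 around CDC45. With each value scaled to the signal within 1 Mb, 2 members differed between lines, against 10.1% of promoter regions.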

How the results depend on the processing

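Of 279 comparisons of a count or median with its value under an alternative, 218 stayed within the tolerance (1.5 times for a count, the spread between libraries for a median) and 61 moved. In SCC1, 10 members were higher and 1 lower. Higher counts were 16 of 55 with each library centred on its median (23.3% of promoter regions) and 5 with the GC trend removed (7.37%). With scaling to signal within 1 Mb, which was chosen after seeing the data, the higher count was 0 (4.75%). Lower counts were 0 with centring, without a filter, by edgeR, by DESeq2 and with the 1 Mb scaling. They were 3 with quantile normalization (1.58% of promoter regions), 3 with the GC trend removed (3.55%) and 2 with scaling to reads without a peak (1.97%). The SCC1 median was 0.28 when centred. In SCC6, 17 were lower and 0 higher. The lower count was 29 of 55 when centred (28.9% of promoter regions) and 1 with reads without a peak (2.44%), with 1 higher (13.3%). It was 4 with the GC trend removed (5.16%) and 10 without a filter (7.88%). The median was -0.40, -0.0012, -0.12 and, with the 1 Mb scaling, -0.26. In SCC25, scaling to reads without a peak gave 12 of 55 lower (13.3% of promoter regions) and a median of -0.28. The SCC25 median was 0.091 centred, 0.084 with quantile normalization and 0.071 with the 1 Mb scaling. Over all lines, reads without a peak gave 22 of 55 higher and 0 lower (39.3% and 0.166% of promoter regions). Centring and the 1 Mb scaling left 1 lower each (1.14% and 1.45%). The interaction count of 6 of 55 (13.5% of promoter regions) became 20 when centred (31.0%) and 14 with reads without a peak (34.9%). It was 14 by edgeR (24.9%), 11 by DESeq2 (21.2%) and 2 with the 1 Mb scaling (10.1%). That scaling also gave 12, 18 and 23 differences between PBS groups (36.8%, 31.9% and 46.3% of promoter regions) in place of 22, 34 and 40. The cause of these shifts was not tested.

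Leaving out 1 library gave 3 to 16 higher and 0 to 2 lower in SCC1 (median 0.034 to 0.19), 0 higher and 7 to 10 lower in SCC6 (median -0.28 to -0.20), 0 in either direction in SCC25 (limma; median -0.017 to 0.053), 0 higher and 2 to 4 lower over all lines, 3 to 11 for the interaction, and 17 to 23, 27 to 35 and 32 to 41 for SCC6 and SCC1, SCC25 and SCC1, and SCC25 and SCC6 in PBS.

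With the replicate number as a block, 16 members were higher and 2 lower in SCC1, 0 were lower over all lines and 11 differed between lines. In SCC1 that block sets aside cetuximab replicate 2, which has no PBS library of its number, so it largely repeats leaving that library out. Correlations of the deviations of same-numbered libraries from their group means ran from -0.042 to 0.026. In groups this small the deviations cancel out, so these values cannot show whether same-numbered libraries shared a culture or batch.

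Directions turned at CDC25A in SCC1 (-0.0075) and at CDC7 in SCC25 against SCC1 (-0.78) and SCC6 (-0.36) with the 1 Mb scaling, and over all lines at CDK1 (0.055), CHEK1 (0.11) and TYMS (0.073) with reads without a peak. The shallowest library was SCC1 cetuximab replicate 2 (2194851 reads in regions), and the part of depth in the SCC1 calls was not tested.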

Other observations

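The RFC2 region was at 1 read, the value that stands for 0, in all 17 libraries although MACS2 had called a peak there in 9. Of 115087 regions, 3251 were at that floor in every library, 3212 of them with a peak in at least 1 library, and 566 were promoter regions. What set these values was not tested.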
